A study of Mus musculus with 3 samples.

Results

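Collagen and collagen crosslinking genes were followed as a set of 10: *Col1a1*, *Col1a2*, *Col3a1*, *Col5a1*, *Col5a2*, *Col6a1*, *Col12a1*, *Lox*, *Postn* and *Dcn*. Their rows were found by symbol among the 27998 genes of the count matrices. Cells came from male C57BL/6J mice of 10 weeks of age, 3 days after burn/tenotomy, a model of heterotopic ossification (HO) in which mice receive a burn to the back and the Achilles tendon is cut through. Unsorted cells of the bone marrow (flushed, red cells lysed), the blood (mononucleated cells of a density gradient, red cells lysed) and the tendon injury site (minced, then digested with collagenases and dispase at 37°C) each gave 1 single-cell library. All 3 libraries shared the injury, none came from uninjured mice, and the sources used here do not say how many mice each held. With 1 library per site there was no replicate and therefore no test. Intervals below cover counting error at 95% and nothing else, and site, cell preparation and library cannot be told apart.

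The proteins of these genes build the fibrillar part of the extracellular matrix. Types I and III collagen form the bulk of fibrils in tendon, skin and healing wounds, type V sits within them and limits their width, type XII binds their surface, and type VI forms beaded microfibrils around cells. Lysyl oxidase (*Lox*) starts the covalent crosslinks between collagen molecules, periostin (*Postn*) helps to bring that machinery to the matrix, and decorin (*Dcn*), a small leucine-rich proteoglycan, coats fibrils and regulates their growth.

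On the GRCm38 build (GENCODE M21), *Col1a1* lies on the plus strand at chr11:94936224-94953042 and *Col1a2* on the plus strand at chr6:4504814-4541544. *Col3a1* (chr1:45311538-45349706, plus strand) and *Col5a2* (chr1:45374321-45503282, minus strand) are neighbors, 24614 bases apart with 0 annotated genes between them. *Col5a1* lies at chr2:27886425-28039514 (plus), *Col6a1* at chr10:76708792-76726168 (minus), *Col12a1* at chr9:79598991-79718831 (minus), *Postn* at chr3:54361109-54391037 (plus) and *Dcn* at chr10:97479609-97518143 (plus). All 10 are protein-coding, with 7 exons (*Lox*) to 66 exons (*Col5a1* and *Col12a1*) in the longest coding transcript.

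Of the 10 genes, *Lox* was not looked up among RefSeq promoter entries, and 5 of the others matched. The 250 bases before the start site are shown for 3 of them, because the results below turn on how differently they were distributed: *Col3a1* as a fibrillar chain of the mesenchymal and mural cells, *Col5a1* as the gene with UMIs in all 3 libraries, and *Postn* as the gene that was also high in keratinocyte-like cells. The windows are RefSeq on GRCm38.p6, 5′ to 3′ on the gene's strand, at chr1:45311288-45311537 (*Col3a1*), chr2:27886175-27886424 (*Col5a1*) and chr3:54360857-54361106 (the *Postn* entry nearest the annotated coding transcript). Capitals mark TATAAA:
Col3a1: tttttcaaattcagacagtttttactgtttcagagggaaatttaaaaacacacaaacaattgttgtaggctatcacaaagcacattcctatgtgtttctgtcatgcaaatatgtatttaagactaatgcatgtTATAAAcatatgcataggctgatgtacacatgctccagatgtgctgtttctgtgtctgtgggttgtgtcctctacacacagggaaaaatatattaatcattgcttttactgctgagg
Col5a1: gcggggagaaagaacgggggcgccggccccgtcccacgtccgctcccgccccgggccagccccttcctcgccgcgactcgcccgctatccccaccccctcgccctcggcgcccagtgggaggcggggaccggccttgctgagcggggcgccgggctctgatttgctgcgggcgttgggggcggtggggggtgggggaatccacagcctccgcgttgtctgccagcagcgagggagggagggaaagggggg
Postn: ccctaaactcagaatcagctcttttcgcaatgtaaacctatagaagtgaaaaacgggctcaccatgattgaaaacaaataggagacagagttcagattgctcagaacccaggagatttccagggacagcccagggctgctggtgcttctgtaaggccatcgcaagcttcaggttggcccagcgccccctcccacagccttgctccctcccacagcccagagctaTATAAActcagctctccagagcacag
TATAAA was found 26 bases before the *Postn* start and 117 bases before that of *Col3a1*. No CCAAT was found on either strand of any of these windows. TATAAA was also absent from both strands of the *Col5a1* window, whose GC content was 76.4% against 52% for *Postn* and 35.2% for *Col3a1*. Over the 250-base windows of all 32851 RefSeq promoters, 12.37% held TATAAA or its reverse TTTATA and 33.85% held CCAAT or its reverse ATTGG. These matches describe letters in a window and were not tested as sites.

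Deposited counts held 1855 bone marrow, 2241 blood and 5629 tendon cells, with medians of 22836, 8316 and 11082 unique molecular identifiers (UMIs, each standing for 1 captured transcript). After the filters 1813, 2146 and 4780 cells were kept, and the libraries shared 8 of 8731 distinct barcodes. Each library was clustered alone, with the 10 genes and 86 related matrix genes kept out of the clustering, and clusters were named from markers that include none of them. In the tendon library this gave 702 mesenchymal-like cells (14 markers, led by *Prg4*, *Mmp3* and *Ptx3*), 111 mural-like cells (18 markers, led by *Tagln*, *Acta2* and *Actg2*), 280 endothelial-like, 57 Schwann-like and 180 keratinocyte-like cells, and 2978 blood-derived cells of neutrophil-like, monocyte/macrophage-like and dendritic-like clusters. Median depth ran from 8191 UMIs (Schwann-like) to 39336 (keratinocyte-like). All 10 tenocyte markers were detected in the mesenchymal-like cells. In all that follows, levels are a gene's UMIs per 1000000 UMIs of the group (CPM). They are not divided by transcript length, so the levels of different genes are not ranked.

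Across sites, the set was found almost entirely in the tendon library. *Col1a1* stood at 1685 CPM in the tendon, 0.434 in the bone marrow (21 UMIs in 20 cells) and 0 in the blood. *Col3a1* stood at 2284 CPM and *Dcn* at 1201 CPM in the tendon, and neither had a UMI in the other libraries. *Lox*, at 322 CPM in the tendon, was likewise at 0 in both. *Postn* stood at 412 CPM in the tendon with 1 UMI in the bone marrow. A count of 0 allows up to 0.0619 CPM in the bone marrow and 0.137 CPM in the blood (3 counts of each total). All 10 genes were at least 4-fold higher in the tendon than in the blood, against 22.1% of all genes tested, and all 10 than in the bone marrow, against 28.0% of all genes. Against the blood floor the log2 ratio was at least 9.05 (*Col12a1*) to at least 14.02 (*Col3a1*) for the 9 genes at 0 there.

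*Col5a1*, which encodes the main chain of type V collagen, was the gene of the set with UMIs in all 3 libraries. Its level was 160 CPM in the tendon (13449 UMIs), 2.35 CPM (1.94 to 2.83; 114 UMIs in 64 cells) in the bone marrow and 0.503 CPM (0.251 to 0.900; 11 UMIs in 6 cells) in the blood. In the bone marrow, 33, 32 and 36 of those UMIs fell in 3 of the neutrophil-like clusters, while another neutrophil-like cluster of 298 cells held 0. Its partner chain *Col5a2*, at 307 CPM in the tendon, had 0 UMIs in both. The log2 ratio of tendon to bone marrow was 6.08 (5.82 to 6.36) for *Col5a1*, against 11.92 (11.31 to 12.62) for *Col1a1*. *Col5a1* overlaps 2 noncoding genes annotated on the opposite strand, and the sources used here do not say whether intronic reads were counted.

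Within the tendon library, mesenchymal-like cells held most of every gene's UMIs, from 79.6% (*Col6a1*) to 98.0% (*Lox* and *Dcn*). Of the 84266893 UMIs of all genes in the kept tendon cells, 26089761 were in mesenchymal-like cells. The 10 genes made up 2.53% of all UMIs of these cells (659212 UMIs), with single cells between 0.0383% and 14.7% and a median of 2.42%. No mesenchymal-like cell lacked all 10, whereas 1359 of the 2978 blood-derived cells did. Median depths of these classes were 34128 and 10461 UMIs, so the counts of cells were not made at equal depth. In the blood-derived cells the set made up 0.00876% of UMIs. That level is used here as the level of free RNA, since droplets that capture an immune cell can also capture RNA released from others.

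The type I chains, the chief collagen of tendon and bone, stood at nearly the same level in mesenchymal-like cells. *Col1a1* was at 5185 CPM (5158 to 5213), 1777 in mural-like, 275 in Schwann-like, 42.5 in endothelial-like, 7.75 in keratinocyte-like and 17.2 in blood-derived cells. *Col1a2* was at 5213 CPM (5185 to 5241), 1490, 460, 46.2, 7.75 and 16.2 in the same order. Both thus fell into the order mesenchymal, mural, Schwann, endothelial, with keratinocyte-like cells below blood-derived cells in CPM. A *Col1a1* UMI was nevertheless found in 26.1% of keratinocyte-like and 15.5% of blood-derived cells, whose median depths were 39336 and 10461 UMIs. *Col3a1*, the chain of type III collagen that is typical of early repair tissue, was at 6921 CPM (6890 to 6953) in mesenchymal-like, 3248 in mural-like, 157 in Schwann-like, 78.9 in endothelial-like, 15.5 in keratinocyte-like and 26.1 in blood-derived cells. Its order of classes was the same. The 10th and 90th percentile cells of the mesenchymal-like class had 1790 and 15626 CPM of *Col3a1*, and 99.7% of the cells had a UMI of it, against 23.0% of blood-derived cells. Thinned to 1000 UMIs per cell (41 blood-derived cells and 1 mural-like cell were shallower and left out), these shares were 93.0% and 2.96%.

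The type V chains followed the same classes at lower counts. *Col5a1* stood at 484 CPM (476 to 493) in mesenchymal-like, 189 in mural-like, 61.4 in Schwann-like, 11.9 in endothelial-like, 1.68 in keratinocyte-like and 1.84 in blood-derived cells. *Col5a2* stood at 924, 326, 196, 49.6, 5.68 and 3.28 CPM. The endothelial-like level was therefore further above free RNA for these chains (log2 ratio 2.69 and 3.92) than for *Col1a1* (1.30).

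*Col6a1*, a chain of the beaded microfibrils, was highest in mural-like cells, with 596 CPM (569 to 624) against 354 (347 to 361) in mesenchymal-like, 44.0 in endothelial-like, 23.2 in Schwann-like, 6.46 in keratinocyte-like and 2.28 in blood-derived cells. It was the member with the reverse order between mesenchymal-like and mural-like cells. *Col12a1*, whose collagen binds fibril surfaces, was at 209 CPM in mesenchymal-like, 100 in mural-like, 75.0 in Schwann-like, 31.4 in keratinocyte-like, 1.92 in endothelial-like and 1.09 in blood-derived cells. The mural and Schwann intervals of *Col12a1* (89.2 to 112 and 56.5 to 97.6) overlapped, and so did the endothelial and blood-derived ones (1.10 to 3.13 and 0.761 to 1.52).

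*Lox*, the crosslinking enzyme, whose gene lies on chromosome 18, stood at 1018 CPM (1006 to 1030) in mesenchymal-like cells, 120 (96.2 to 148) in Schwann-like, 77.6 (68.1 to 88.1) in mural-like, 6.01 in endothelial-like, 3.87 in blood-derived and 2.07 in keratinocyte-like cells. Its Schwann-like level was above its mural level, with intervals that did not overlap, the reverse of the order of the fibril-forming chains. That order came from a cluster of 31 Schwann-like cells at 333 CPM of *Lox*. The other Schwann-like cluster, of 26 cells, stood at 4.21 CPM (0.510 to 15.2), below mural-like cells. *Postn* stood at 1156 CPM in mesenchymal-like, 355 (334 to 376) in mural-like, 351 (338 to 365) in keratinocyte-like, 76.4 in Schwann-like, 55.5 in endothelial-like and 4.62 in blood-derived cells. Its mural and keratinocyte levels did not differ beyond their intervals. *Dcn* stood at 3802 CPM in mesenchymal-like, 324 in mural-like, 61.6 in endothelial-like, 11.1 in blood-derived, 8.18 in Schwann-like and 5.55 in keratinocyte-like cells. Schwann-like and keratinocyte-like cells were thus at or below blood-derived cells in CPM.

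**Figure D1:**
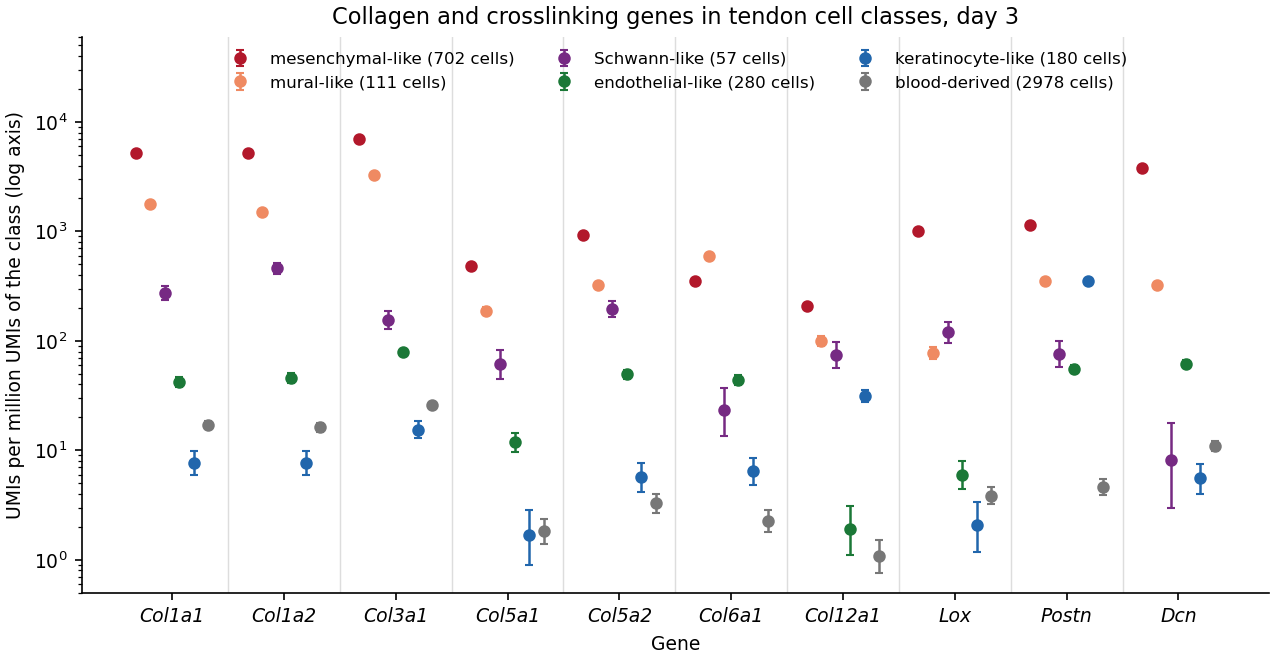
Level of each of the 10 genes (CPM, log axis) in the tendon cell classes, 1 point per class of the 1 tendon library, with bars for the 95% Poisson interval of the count. The mesenchymal-like points are the highest for 9 genes, the mural-like point is the highest for *Col6a1*, and the keratinocyte-like point is high only for *Postn* (351) and, less so, *Col12a1* (31.4).

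Against blood-derived cells, all 10 genes were at least 4-fold higher in mesenchymal-like cells, where 21.0% of all genes tested were. Their log2 ratios ran from 7.28 (*Col6a1*, 6.95 to 7.63) to 8.42 (*Dcn*, 8.27 to 8.58) with a median of 8.05, against a median of 0.38 over all genes. All 10 were also at least 4-fold higher in mesenchymal-like than in endothelial-like cells (9.17% of all genes), 9 than in Schwann-like cells (6.23%, with *Col12a1* at a log2 ratio of 1.48) and 9 than in keratinocyte-like cells (15.1%, with *Postn* at 1.72).

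Mural-like cells, the pericytes and smooth muscle cells around vessels, also carried the set, which made up 0.848% of their UMIs (median cell 0.568%, with 4 of 111 cells having none). All 10 genes were at least 4-fold higher there than in blood-derived cells, against 15.0% of all genes, with log2 ratios from 4.33 (*Lox*) to 8.03 (*Col6a1*). Compared with mural-like cells, 2 genes were at least 4-fold higher in mesenchymal-like cells (4.91% of all genes): *Lox*, with a log2 ratio of 3.71 (3.53 to 3.90), and *Dcn*, with 3.55 (3.46 to 3.64). At least 2-fold higher in mesenchymal-like cells were 9 genes (13.9% of all genes). The fibril-forming chains were closer, at 1.54 for *Col1a1*, 1.81 for *Col1a2*, 1.09 for *Col3a1*, 1.36 for *Col5a1* and 1.5 for *Col5a2*. *Postn* had 1.70 and *Col12a1* 1.06, and *Col6a1* had -0.75 (-0.82 to -0.68). In the share of UMIs, *Col6a1* took 7.02% of the set in mural-like and 1.40% in mesenchymal-like cells, whereas *Dcn* took 3.82% and 15.0%. The *Dcn* signal of mural-like cells was concentrated: 43 of 111 cells had a UMI, the highest cell held 25.4% of the UMIs (245 CPM without it) and the top 10% of cells held 86.7%. For *Col6a1* 95 of 111 cells had a UMI and the top 10% held 33.0%. Mesenchymal markers were present in the mural-like cells, 23 of 23 at a summed 1619 CPM against 11400 CPM in mesenchymal-like cells, and endothelial markers at 2457 CPM (24 of 25 detected, *Fabp4* alone 1858). Their part in the mural levels was not tested.

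Schwann-like cells, the glia of peripheral nerve, fell into a larger cluster of 31 cells and a smaller cluster of 26 cells. Over both, 9 genes were at least 4-fold higher than in blood-derived cells (16.1% of all genes), the exception being *Dcn* with a log2 ratio of -0.44 (-1.89 to 0.70). With each cell named on its own the count was 3. Counted cluster by cluster, 7 genes passed that fold in the larger cluster (22.8% of all genes) and 8 in the smaller cluster (18.4%). *Col1a2* was found in 27 of 31 and 23 of 26 cells, at 770 CPM (667 to 885) in the larger cluster and 291 (244 to 343) in the smaller cluster. *Col1a1* stood at 437 and 187 CPM in the same order.

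The clearest split between the Schwann-like clusters was in *Lox*. It stood at 333 CPM (266 to 411; 86 UMIs in 15 of 31 cells) in the larger cluster and at 4.21 CPM (0.510 to 15.2, from 2 UMIs) in the smaller cluster, a log2 ratio of 6.30 (4.41 to 9.37). Without its highest cell the larger cluster still had 302 CPM of *Lox*. *Col5a2* went the other way, with 77.4 CPM (47.3 to 120) in the larger cluster and 261 (217 to 311) in the smaller cluster. *Postn* had 0 UMIs in the larger cluster and 118 CPM in the smaller cluster, where 1 cell held 50% of them (60.5 CPM without it). Markers of mesenchymal cells differed too, summing to 2028 CPM in the larger cluster (9 of 23 detected, *Mfap5* 1308 and *Tppp3* 639) and to 295 CPM in the smaller cluster (12 of 23). Their part in the Schwann-like levels was not tested. *Dcn*, at 3802 CPM in mesenchymal-like cells, stood at 3.87 CPM (1 UMI) in the larger cluster. The set had 513 UMIs in the larger cluster and 552 in the smaller cluster, so these intervals are wide.

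Endothelial-like cells, which line vessels, formed a cluster of 249 cells led by *Fabp4*, *Tmem252* and *Ctla2a* and a cluster of 31 cells led by *Ccl21a*, *Mmrn1* and *Lyve1*, genes known from lymphatic vessels. Over both, 5 genes were at least 4-fold above blood-derived cells, against 16.5% of all genes. The count was 3 with the libraries integrated or with neutrophil-like cells as the level of free RNA, and 0 with each cell named on its own. In the *Fabp4* cluster these were *Col6a1* (47.2 CPM, log2 ratio 4.37), *Col5a2* (53.2 CPM, 4.02), *Postn* (56.1 CPM, 3.60), *Col5a1* (12.8 CPM, 2.80) and *Dcn* (65.9 CPM, 2.57), with 16.2% of all genes past that fold. Few cells carried these UMIs: *Col6a1* was found in 39 of 249 cells, *Postn* in 30 and *Dcn* in 39, and the top 10% of cells held 96.1%, 98.8% and 97.2% of them. *Col5a2* was spread over 80 cells. Mural markers were all detected in this cluster, 20 of 20 at a summed 1449 CPM (*Rgs5* 464, *Acta2* 326) against 16021 CPM in mural-like cells, and their part in these levels was not tested. For *Col1a1*, 1 cell held 38.1% of the cluster's UMIs, and 30.5% of cells had a UMI against 15.5% of blood-derived cells. After thinning to 1000 UMIs per cell these shares were 2.01% and 2.08%, whereas the *Col1a1* levels were 44.9 CPM (28.1 without that cell) and 17.2 CPM, so no order was read from the shares. In the *Ccl21a* cluster the 10 genes had 70 UMIs in all, and 1 gene passed the fold (15.4% of all genes): *Postn*, at 47.9 CPM with a log2 ratio of 3.37 (2.77 to 3.94), from 3 of 31 cells. Of those *Postn* UMIs 1 cell held 61.3%, and the level without it was 19.9 CPM. Between these clusters, 6 of the 9 genes tested were at least 4-fold higher in the *Fabp4* cluster (3.98% of all genes). *Postn* was not among them (log2 ratio 0.23, -0.30 to 0.80, with the highest cell of the *Ccl21a* cluster counted).

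Keratinocyte-like cells, the epithelial cells of skin, had 1 gene of the set at a high level. *Postn* stood at 351 CPM, a log2 ratio of 6.25 (6.01 to 6.50) to blood-derived cells, and took 80.7% of the set's UMIs there against 4.58% in mesenchymal-like and 5.27% in blood-derived cells. It was found in 79 of 180 cells, the top 10% of cells held 73.8% of its UMIs, and the highest cell reached 12464 CPM. A *Postn* UMI was found in 43.9% of keratinocyte-like and 4.57% of blood-derived cells, and in 17.8% and 0.817% of them after thinning to 1000 UMIs per cell. *Col12a1* was the other gene past 4-fold, at 31.4 CPM with a log2 ratio of 4.84 (4.33 to 5.40) and UMIs in 84 of 180 cells. These were 2 of 10 genes, against 16.1% of all genes, and 1 when tendon lymphocytes set the level of free RNA, an alternative chosen after the data were seen. *Col6a1* had 1.5 and *Col5a2* 0.79, and the other 6 genes had ratios below 0, from -1.15 (*Col1a1*) to -0.13 (*Col5a1*). These are ratios of CPM between classes of unlike depth, with medians of 39336 UMIs in keratinocyte-like and 10461 in blood-derived cells. *Col1a1* UMIs were found in 26.1% and 15.5% of cells in the same order. The part of depth in the ratios below 0 was not tested. Mesenchymal markers summed to 261 CPM in keratinocyte-like cells, of which *Gas1* was 133. Their part in the *Postn* and *Col12a1* levels was not tested.

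In blood-derived cells the make-up of the set was near that of mesenchymal-like cells for most genes. *Col1a1* was 19.6% of the set's UMIs against 20.5%, *Col3a1* 29.8% against 27.4%, *Dcn* 12.7% against 15.0%, *Lox* 4.42% against 4.03% and *Postn* 5.27% against 4.58%. In proportion, *Col6a1* and *Col12a1* differed more, at 2.60% against 1.40% and 1.25% against 0.826%. The highest blood-derived cell had 1.18% of its UMIs in the set and the median cell 0.00573%. Among mural-like cells the same shares were 20.9%, 38.3%, 3.82%, 0.915% and 4.18%.

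**Figure D2:**
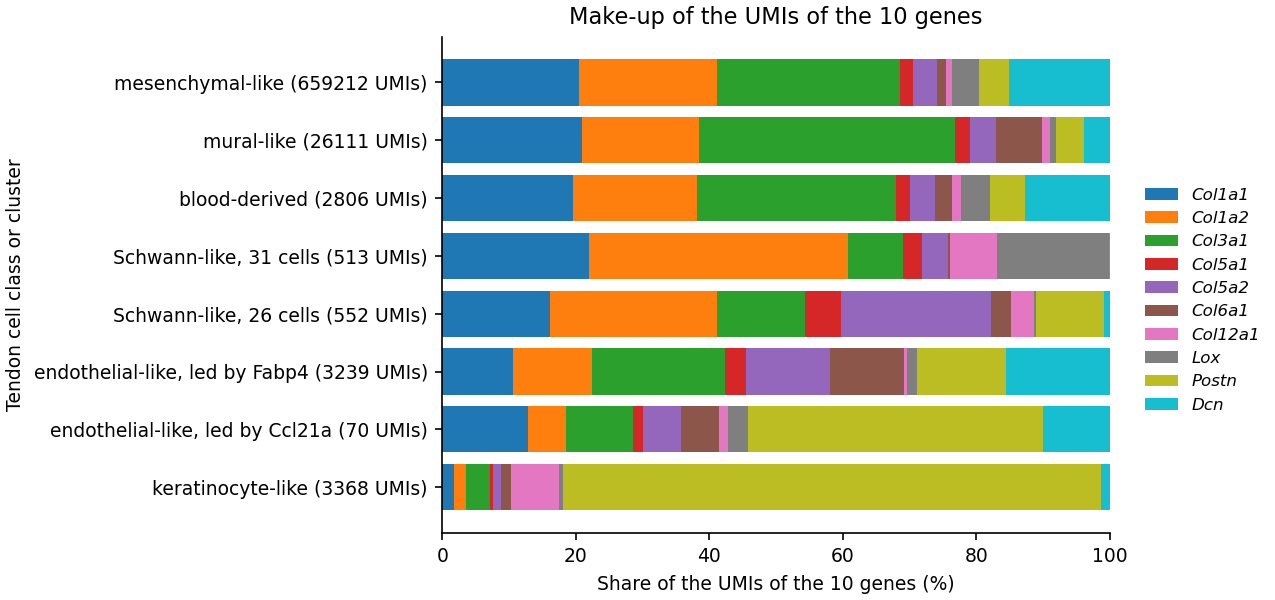
Share of the UMIs of the 10 genes (%) taken by each gene, 1 bar per tendon cell class or cluster, with the number of UMIs behind each bar on the axis. Blood-derived and mesenchymal-like bars are close, and in proportion they differ most for *Col6a1* (2.60% and 1.40%) and *Col12a1* (1.25% and 0.826%). *Postn* fills 80.7% of the keratinocyte-like bar, *Lox* 16.8% of the bar of the larger Schwann-like cluster, and *Col5a2* 22.5% of that of the smaller one.

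Mesenchymal-like cells were then clustered again on their own, still without the set and its pathway lists. This gave 347 cycling cells (9 of 9 cycling markers), 183 cells led by *Isg15*, *C1qtnf3* and *C3*, 100 cells led by *Spp1*, *Apod* and *Sfrp4*, and 72 tenocyte-like cells (9 tenocyte markers, led by *Angptl7*, *Comp* and *Kera*). Their median depths were 49177, 27862, 13526.5 and 19923 UMIs. Tenocytes are the resident cells of tendon.

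The *Isg15* subcluster held the largest share of the set, 4.38% of its UMIs against 1.93% in cycling, 2.65% in *Spp1* and 2.92% in tenocyte-like cells. The median cycling, *Spp1* and tenocyte-like cells had 1.81%, 3.00% and 2.22%, against 3.94% in the *Isg15* subcluster. *Col1a1* stood at 8651 CPM there, against 4111, 5734 and 5156 in the cycling, *Spp1* and tenocyte-like cells. *Col3a1* stood at 12261 CPM against 5504, 8002 and 4235. *Lox* stood at 1896 CPM against 807, 555 and 1017. Every interval of the *Isg15* subcluster lay above the others for these 3 genes. Compared with all other mesenchymal-like cells, 5 genes were at least 2-fold higher in it (*Col1a2*, *Col3a1*, *Col5a2*, *Lox* and *Postn*, against 8.92% of all genes) and 1 at least 4-fold (*Postn*, 1.76%).

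Of the 10 genes, *Postn* varied the most between subclusters. It stood at 3514 CPM (3462 to 3565) in the *Isg15* subcluster, 672 in cycling cells, 139 in the *Spp1* subcluster and 101 (86.2 to 117) in tenocyte-like cells. In the *Spp1* and tenocyte-like subclusters most cells had none (UMIs in 30 of 100 and 19 of 72 cells). The *Spp1* subcluster was also low in *Col12a1*, at 71.0 CPM against 211, 234 and 254 in the cycling, *Isg15* and tenocyte-like cells.

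**Figure D3:**
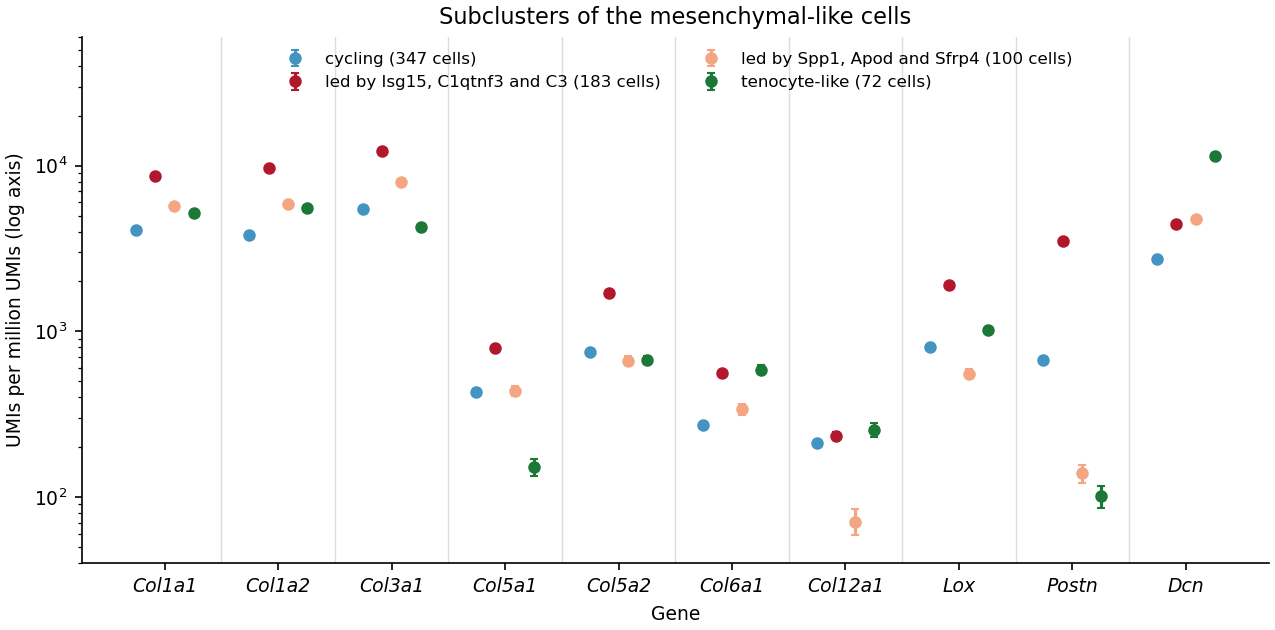
Level of each gene (CPM, log axis) in the 4 subclusters of the mesenchymal-like cells, with bars for the 95% Poisson interval. The *Isg15*-led points are the highest for 7 genes, the tenocyte-like points for *Dcn* (11489) and, with intervals that overlap those of the *Isg15*-led cells, *Col6a1* (586) and *Col12a1* (254), and *Postn* spreads from 101 to 3514.

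Compared with the other mesenchymal-like cells, 1 gene was at least 2-fold higher in tenocyte-like cells (7.82% of all genes) and 2 were at least 2-fold lower (14.7%). These counts were near the shares over all genes. The 3 genes became 5 at a finer subclustering or with each cell named on its own. *Dcn* was higher, at 11489 CPM (11330 to 11650), a log2 ratio of 1.82 (1.80 to 1.84). *Postn* was lower by a log2 ratio of -3.61 (-3.84 to -3.40) and *Col5a1*, at 151 CPM, by -1.75 (-1.93 to -1.57). In summed UMIs the type I chains and *Lox* were nearly level (-0.01 for *Col1a1*, 0.10 for *Col1a2*, 0.00 for *Lox*), while *Col3a1* had -0.75 and *Col6a1* 0.80. Single tenocyte-like cells differed widely, from 0 to 50063 CPM of *Col1a1*, so level sums do not mean level cells. *Dcn* took 39.3% of the set's UMIs in these cells. It was found in 71 of 72 of them, and the highest cell held 3.86% of its UMIs. For *Col1a2* the highest cell held 11.8%, and *Col1a2* was 4973 CPM without it. Markers of mural cells summed to 1151 CPM in the tenocyte-like cells, of which *Ndufa4l2* was 859, and *Prg4* (lubricin, a joint and tendon surface lubricant) stood at 48664 CPM. The part of either in the ratios was not tested.

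**Figure D4:**
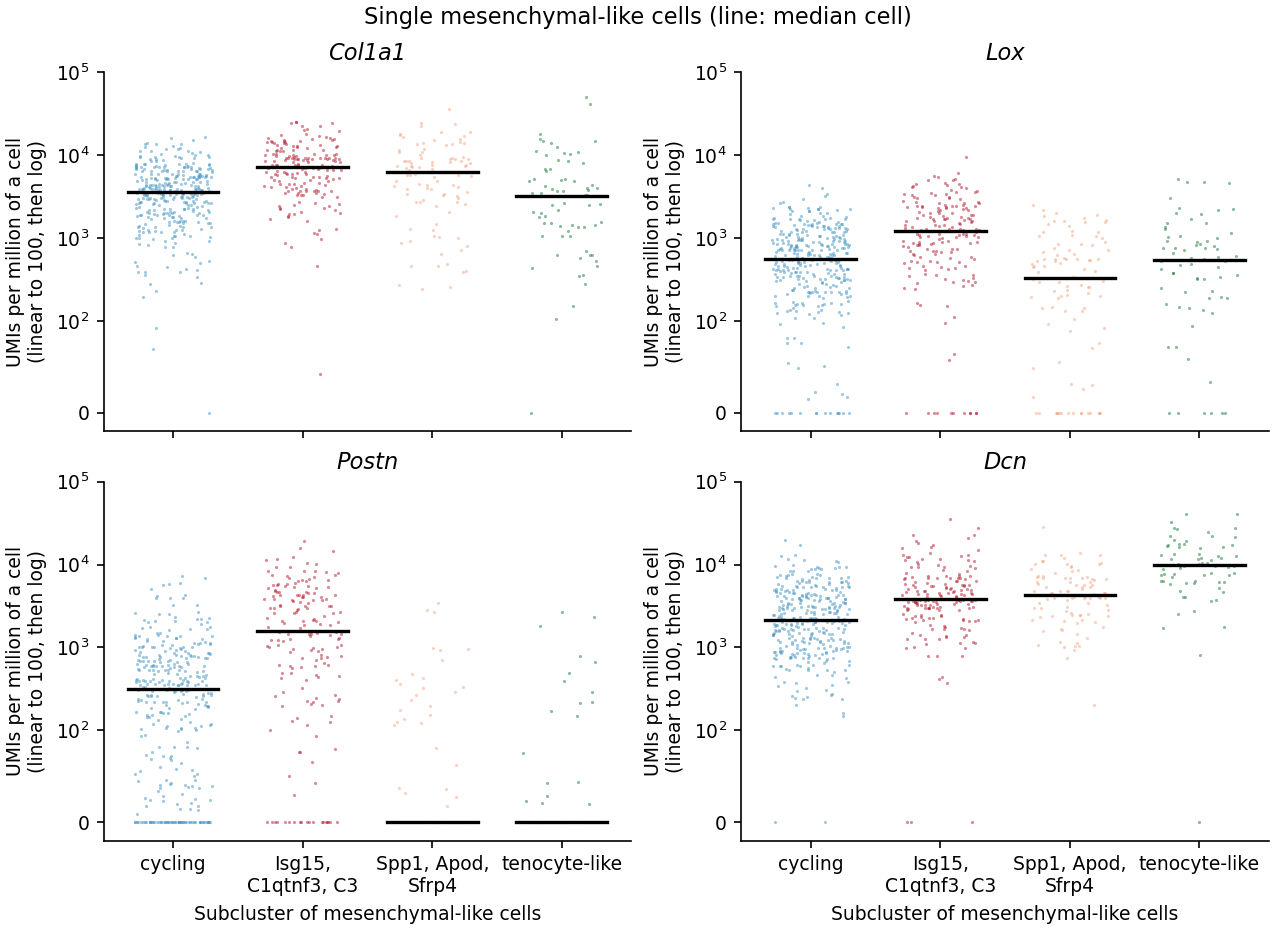
Level of *Col1a1*, *Lox*, *Postn* and *Dcn* in single mesenchymal-like cells (CPM of the cell, linear to 100 and then log), by subcluster, 1 point per cell with a line at the median cell. The *Postn* median is 0 in the *Spp1*-led and tenocyte-like cells and 1563 in the *Isg15*-led cells, and the *Dcn* median is 9753 in tenocyte-like and 2164 in cycling cells.

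From cell to cell the type I chains moved together. Among 614 mesenchymal-like cells thinned to 10000 UMIs each, Spearman's rho between *Col1a1* and *Col1a2* was 0.90, and 0.84 to 0.95 within the subclusters. These correlations are descriptions over cells of 1 library. *Col1a1* and *Col3a1* had a rho of 0.69, which was 0.61 to 0.83 in the cycling, *Isg15* and *Spp1* cells and 0.20 in the 57 tenocyte-like cells. In those 57 cells *Col1a1* instead had a rho of 0.78 with *Col6a1* and 0.72 with *Col12a1*. Between *Col3a1* and its neighbor *Col5a2* rho was 0.71 there, against 0.56 in cycling, 0.34 in *Isg15* and 0.68 in *Spp1* cells. *Dcn* had a rho of 0.06 to *Col1a1* (0.41 in the tenocyte-like cells), 0.25 to *Col3a1* (0.40 in cycling and 0.43 in *Isg15* cells), 0.27 to *Col6a1*, -0.15 to *Col5a1* and -0.25 to *Postn*. The *Postn* to *Dcn* value lay between -0.38 and -0.13 within every subcluster.

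Other genes of the collagen pathway, from 10 lists, were set beside the 10 genes by the ratio of mesenchymal-like to blood-derived cells, for which 21.0% of all genes were at least 4-fold higher and 12.3% at least 4-fold lower. Among other fibril-forming collagens, 4 of 5 with enough UMIs were at least 4-fold higher (*Col11a1* 8.51, *Col5a3* 7.35 and *Col27a1* 5.52 on the log2 scale). All 3 tested fibril-associated collagens were (*Col16a1* 7.37, *Col22a1* 6.97 and *Col14a1* 5.29). The partner chains of *Col6a1* were likewise higher in mural-like than in mesenchymal-like cells: *Col6a3* stood at 749 CPM in mural-like and 335 in mesenchymal-like cells, and *Col6a2* at 457 and 252. Of the basement membrane and network collagens 8 of 9 were at least 4-fold higher (*Col8a1* 8.64, *Col8a2* 7.95 and *Col4a5* 6.76). *Col18a1*, also past the fold at 2.77, stood at 18.1 CPM in mesenchymal-like cells against 647 in mural-like and 409 in endothelial-like cells. Of 2 transmembrane collagens 1 was higher (*Col23a1*, 6.01). Some ratios named in this paragraph and the next rest on few blood-derived UMIs, so their intervals are wide. They were 4.46 to 12.3 for *Col22a1*, 5.45 to 13.3 for *Col8a2* and 4.89 to 9.82 for *Col4a5*. For *Ecm2* the interval was 6.52 to 11.4 and for *Fbn2* 7.07 to 10.9.

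Among crosslinking enzymes, 5 of 8 were at least 4-fold higher and 1 at least 4-fold lower. *Plod2*, a lysyl hydroxylase that prepares telopeptides for crosslinking, had a log2 ratio of 8.98, and the lysyl oxidase relatives *Loxl1* and *Loxl2* had 7.92 and 6.58. *Tgm2*, a transglutaminase also used by macrophages, had -2.99, with 16.3 CPM in mesenchymal-like and 129 in blood-derived cells. *Lox* and *Loxl2* differed in mural-like cells: *Loxl2* stood at 172 CPM there and 164 in mesenchymal-like cells, whereas *Lox* stood at 77.6 and 1018. Genes of procollagen hydroxylation, folding and export were at least 4-fold higher in 11 of 17 cases (*Fkbp10* 7.85, *P4ha3* 7.82 and *Serpinh1*, a collagen chaperone, 7.72), with *Ctage5* at -0.90. All 7 tested procollagen processing genes (*Pcolce2* 8.88, *Adamts2* 8.18, *Pcolce* 7.85 and *Adamts14* 4.37), all 9 small leucine-rich proteoglycans (*Aspn* 8.64, *Ogn* 8.57, *Ecm2* 8.38 and *Omd* at least 6.12) and all 9 matricellular and fibrillin partners (*Fbn2* 8.62, *Fbn1* 8.21, *Sparc* 8.13 and *Emilin1* 2.78) were past the fold. *Ogn*, a proteoglycan related to decorin, was at 475 CPM in Schwann-like cells against 238 in mesenchymal-like cells, where *Dcn* was at 8.18 and 3802.

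**Figure D5:**
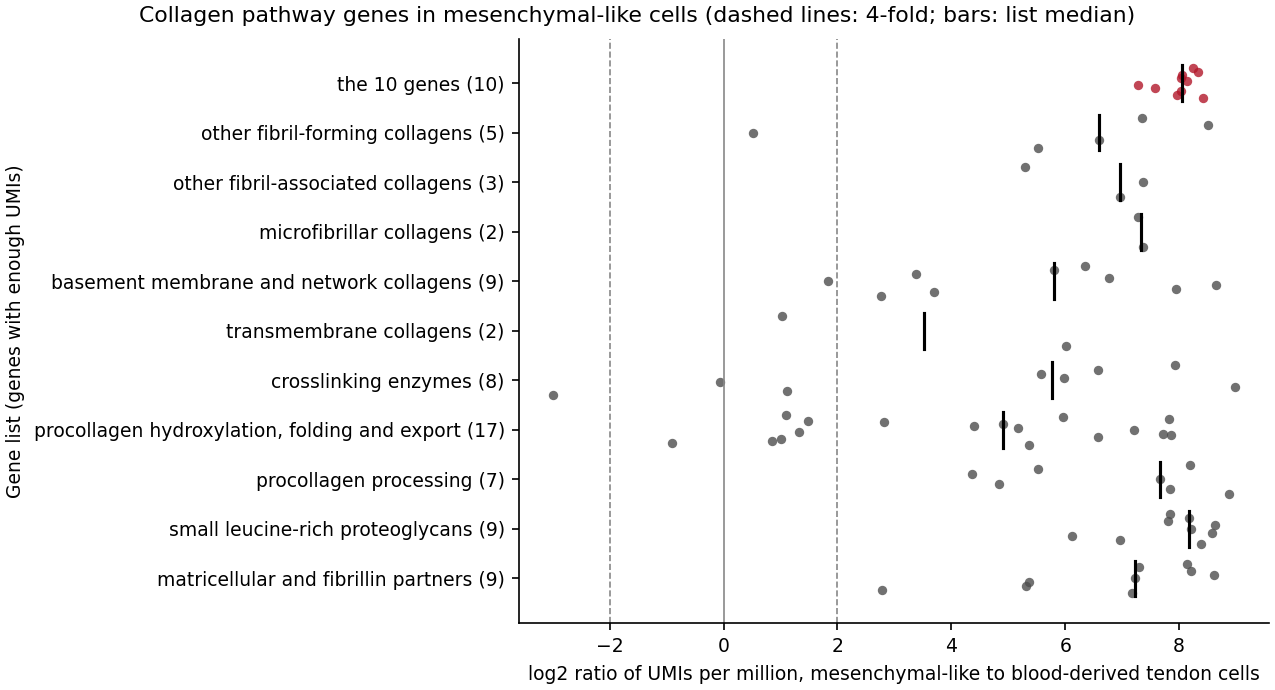
Log2 ratio of CPM between mesenchymal-like and blood-derived tendon cells for the 10 genes and 10 lists of collagen pathway genes, 1 point per gene with at least 20 UMIs, black bars at list medians and dashed lines at 4-fold. *Omd* is drawn at its lower bound, *Tgm2* (-2.99) is the lowest point, and the medians of all lists lie right of 2.

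By profile over the 15 tendon clusters, the genes most like the set were *Gfpt2* (Pearson's r 0.96 to the mean log2(CPM + 1) of the 10 genes), *Antxr1* (0.95), *Pcolce* (0.95), *Thbs3* (0.95) and *Mmp23* (0.94), of 7383 genes compared. *Antxr1* encodes a collagen-binding receptor and *Pcolce* an enhancer of procollagen cleavage. Within the set, *Col3a1* was the gene nearest the mean profile (0.98) and *Postn* the farthest from it (0.68). The 15 clusters share 1 library and its depth, so these values are descriptions.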

How the data were processed

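Unsorted bone marrow, blood and tendon injury site cells were profiled with 10x Genomics Chromium 3′ chemistry, 1 library per site. The authors deposited raw UMI counts for each gene in each cell. The file headers name Cell Ranger 5.0.1 and the submitters' processing notes name mm10. Counts were analysed with Python 3.11.15 (numpy 2.4.6, scipy 1.17.1, pandas 2.3.3, scanpy 1.11.5) and R 4.3.3 (Seurat 5.3.0). Cells with at least 200 genes and at most 20% mitochondrial UMIs were kept, leaving out 15 bone marrow, 57 blood and 651 tendon cells. The Scrublet threshold marked 11 bone marrow, 31 blood and 0 tendon cells. In each library the top-scoring cells were taken out instead, 0.8% for every 1000 cells that passed the filters (27, 38 and 198 cells). Libraries were clustered separately (2000 variable features, 30 components, resolution 0.5; subclusters 20 components, resolution 0.3), leaving out 96 matrix genes. A name needed at least 3 fixed markers among the leading 100 genes. The leading genes of the Schwann-like clusters are not reported here.

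UMIs were summed per group and divided by the group's total. Levels carry exact Poisson, shares exact Clopper-Pearson and ratios exact binomial 95% intervals, and UMIs are treated as independent molecules. Genes with at least 20 UMIs in a pair of groups were compared at 4-fold (2-fold for subclusters), with no p-value. Scripts were tested on simulated data. In the pathway lists, the 3 highest and the lowest ratios among genes with at least 100 UMIs in mesenchymal-like cells were named, and likeness was ranked among genes with at least 1000 tendon UMIs. Members and lists were chosen with earlier results of these data known, and *Loxl2*, *Ogn*, *Col18a1* and the type VI chains were compared further after their values were seen. Reads of *Col1a2*, *Col3a1* and *Col5a2* cannot be told apart from those of small same-strand gene models inside them. In all, 15 alternative settings were tried.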

Additional observations from a re-analysis of the deposited data

Results flagged for a closer look

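The 651 tendon cells left out by the filters on genes and mitochondrial UMIs also carried collagen and crosslinking UMIs. The 10 genes stood at 2067 CPM in them (1999 to 2137; 3447 UMIs of 1667669), in data that the comparisons above do not use. The corresponding 57 blood and 15 bone marrow cells had 0 UMIs of the set, which allows up to 38.2 and 67.2 CPM (3 counts of each total). The tendon value lies between that of blood-derived cells (87.6 CPM) and that of mural-like cells (8483 CPM). Which cells these were was not tested.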

How the results depend on the processing

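The counts of genes past 4-fold in mesenchymal-like against blood-derived (10), endothelial-like (10), Schwann-like (9) and keratinocyte-like (9) cells, in mural-like against blood-derived cells (10), and in the tendon against either other library (10 each) stayed within 1.5 times under every alternative run. The endothelial count was the least stable. From 5 (16.5% of all genes at 4-fold) it went to 8 at 2-fold (30.6% of all genes). It went to 3 with the libraries integrated, with a mean over cells, with neutrophil-like cells as the level of free RNA or at 8-fold. With cells named 1 by 1 it went to 0, and the log2 ratios of *Col5a1* and *Dcn* turned from 2.69 and 2.47 to -0.20 and -0.41. That setting also took the Schwann count from 9 to 3. Its blood-derived reference held 3339 cells in place of 2978, among them 35 of the mesenchymal-like and 2 of the mural-like cells. The level of the set in that reference was 820.8 CPM in place of 87.6. For the tenocyte-like cells, 3 genes became 5 with cells named 1 by 1, at 1.5-fold or at subcluster resolution 0.6. At 4-fold 1 gene was left, which was lower, as were 4.48% of all genes. Shares of all genes at the other settings of the endothelial, Schwann and tenocyte-like counts are not given here. At least 2-fold higher in mesenchymal-like than in mural-like cells were 9 genes (13.9% of all genes), against 2 at 4-fold (4.91%). The share of the set in mesenchymal-like UMIs (2.53%) was 2.55% with integration, 2.63% with cells named 1 by 1, 2.46% with no doublets removed, 2.54% with no filter, 2.49% with a strict filter, 2.82% as a mean over cells and 2.64% with the set and its lists left out of the total. With tendon lymphocytes named cell by cell as the level of free RNA, chosen after seeing the data because no tendon cluster was named T, B or NK, the keratinocyte count was 1 in place of 2; the planned lymphocyte setting could not be run. The causes of these shifts were not tested. Of the single-gene values, 804 stayed within their interval, 394 moved and 2 reversed, both named above. The share of all genes past 4-fold in mesenchymal-like against blood-derived cells was 18.3% with a minimum of 1 UMI, 21.0% with 20 and 17.5% with 100. No paired analysis was possible because each site has 1 library.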

Other observations

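Tendon clusters that could not be named were left out of the classes. A cluster of 248 cells led by *Acp5*, *Tnni2* and *Nrp2* had the 10 genes at 82.3 CPM, near the 87.6 CPM of blood-derived cells. A cluster of 224 cells led by *Gm26917*, *P2ry10* and *H2-Q7*, with a median of 2605 UMIs, had them at 323 CPM, and 121 of its cells had none. The neutrophil-like cells of the tendon library (median depth 3480 UMIs) had the set at 143 CPM against 87.6 CPM over all blood-derived cells, and 339 of 565 had none.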
